A study of Mus musculus with 6 samples.

Results

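The 10 genes described here are subunits, feedback inhibitors and inducible targets of NF-kB, taken by symbol from a count table of 30438 gene symbols, and all 10 had counts. They are the subunit genes Nfkb1, Nfkb2, Rela and Relb, the inhibitors Nfkbia and Tnfaip3, and the targets Vcam1, Icam1, Ccl2 and Il6. RNA of HEI-OC1 cells, a conditionally immortalised line from the mouse organ of Corti used to study injury of auditory cells, was sequenced as poly(A)-selected libraries. There were 3 libraries of HEI-OC1 cells labelled as knocked out for Nrf2 and 3 control libraries of HEI-OC1 cells labelled wild type, all grown at 33 °C in 10% CO2 with 10% fetal bovine serum and penicillin-streptomycin, with no drug recorded. The stated purpose was to look for transcripts that accompany the resistance to cisplatin, an ototoxic chemotherapy drug, seen in Nrf2 KO cells. How the gene was edited, where, and whether the cells came from 1 clone is not given in these sources.

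NF-kB is a family of dimeric transcription factors. In resting cells IkB proteins such as the product of Nfkbia hold most dimers in the cytoplasm. Receptors for TNF, interleukin-1 and microbial products activate the IKK kinases, which mark IkB for destruction and let dimers such as the one of the Nfkb1 and Rela products enter the nucleus. Nfkbia and Tnfaip3 are themselves NF-kB targets, so the pathway dampens itself. A second branch, driven by the kinase of Map3k14, processes the Nfkb2 product and releases its dimer with the Relb product. In the cochlea, NF-kB targets such as Ccl2, Il6, Icam1 and Vcam1 are studied as part of the inflammatory response to noise and to ototoxic drugs.

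Promoters are shown for the 2 feedback inhibitors and the cytokine gene Il6, because each holds the short DNA sequence that NF-kB dimers bind close to its start, and Tnfaip3 was the 1 of them that passed the test. The 130 bases before the annotated start come from RefSeq on mouse build GRCm38.p6, read 5′ to 3′ on the strand of the gene, with matches to the kB consensus in capitals.
Tnfaip3, chr10:19015411-19015540, minus strand: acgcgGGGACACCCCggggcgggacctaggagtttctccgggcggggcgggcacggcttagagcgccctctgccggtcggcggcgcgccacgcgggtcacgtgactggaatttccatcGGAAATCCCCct
Nfkbia, chr12:55492648-55492777, minus strand: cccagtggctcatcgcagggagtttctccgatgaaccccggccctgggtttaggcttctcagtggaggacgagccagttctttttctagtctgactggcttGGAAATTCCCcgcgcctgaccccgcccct
Il6, chr5:30012984-30013113, plus strand: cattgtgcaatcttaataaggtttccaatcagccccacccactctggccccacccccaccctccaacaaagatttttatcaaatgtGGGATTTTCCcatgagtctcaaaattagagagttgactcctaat

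The kB consensus was searched on both strands in windows of 300 bases, 250 before and 50 after each annotated start, and overlapping matches were joined. The table held 9 windows for 6 members: Nfkb2, Rela, Nfkbia, Tnfaip3, Icam1 and Il6. Nfkb1, Relb, Vcam1 and Ccl2 had no entry. The first Tnfaip3 window held 2 matches, starting 125 and 12 bases before the start, Nfkbia held 1 at 29 bases and Il6 held 1 at 44 bases. All 3 annotated starts of Nfkb2 had a match in their window, and in the first of them the 2 stretches lay 39 and 11 bases before the start. The windows of Rela and Icam1 and the second window of Tnfaip3 held no exact match. Sites that differ from the consensus in any base were not searched for, so a window without a match may still hold a variant site. Of all 32851 windows in the table, 1480 held a match, which is 4.51%.

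**Figure D1:**
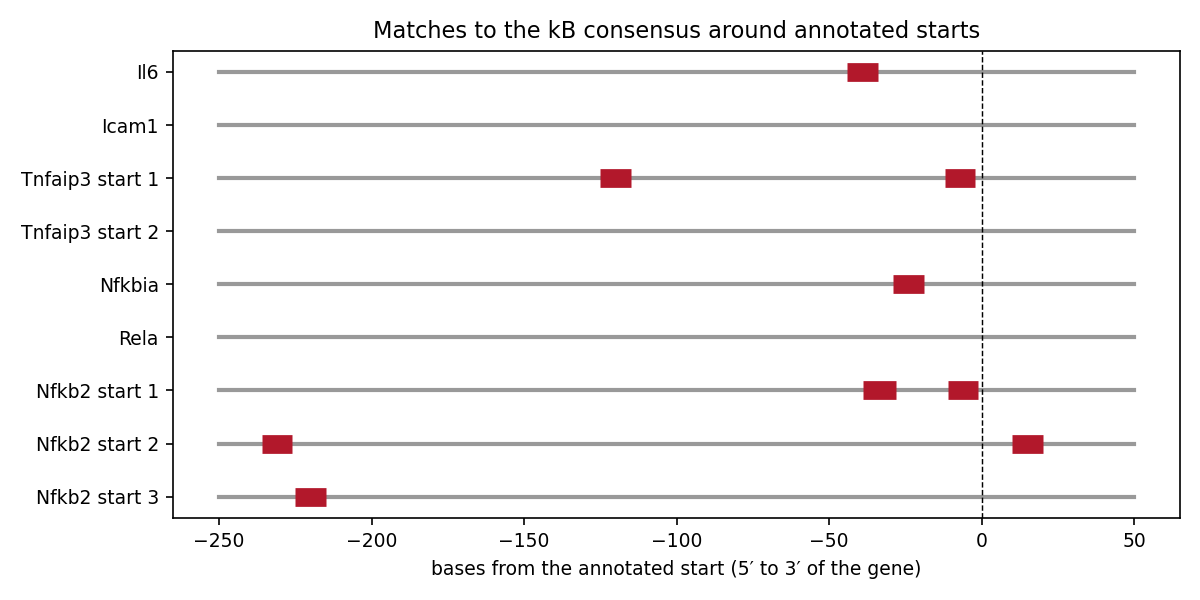
Position of matches to the kB consensus (red blocks) in each promoter window of the members, as bases from the annotated start, which is the dashed line at 0. The matches of Il6, Nfkbia, the first Tnfaip3 start and the first Nfkb2 start lie within 125 bases before the start, and 3 windows have no match.

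Before the members, a check of the label. Nfe2l2, the gene that encodes Nrf2, had 395.7, 235.6 and 204.5 CPM (counts scaled to library size with TMM factors) in the Nrf2 KO-labelled libraries, against 74.2, 126.5 and 96.7 CPM in the control libraries. Its transcript was higher, not lower, under the knockout label, in every library and without overlap (log2 fold change 1.49, SE 0.33, edgeR quasi-likelihood adjusted p = 0.0456). Upper-quartile scaling ended that call (adjusted p = 0.0526), as did scaling by library size (0.0593) and 5 of 6 fits with 1 library left out (0.0784 to 0.202), but not the fit without Nrf2 KO replicate 1 (0.0126). Counts per gene cannot check an edit that lets the transcript be made. All directions here are those of the label, Nrf2 KO over control. Library totals lay between 29130007 and 51285343 counts. Replicate 1 labelled Nrf2 KO stood apart, with a Pearson's r across genes of log2 CPM of 0.931 and 0.939 with replicates 2 and 3 of its group, which had 0.995 with each other. For the members, other pathway genes and cell type markers named, fits without that library, or without both libraries numbered 1, are given where a call changes. The cell type in the labels is a cochlear stem cell. Sox2, a defining gene of cochlear progenitors, and the hair cell genes Atoh1, Slc17a8 and Tmc1 were at 0 counts in all 6 libraries. Other genes of those lists were present. The hair cell myosin gene Myo7a had 15.2 to 30.0 CPM in the Nrf2 KO-labelled libraries and 1.08 to 1.45 CPM in the control libraries, and the supporting cell genes Sox9 (29.6 to 48.8 CPM in the Nrf2 KO-labelled libraries, 6.70 to 9.80 in the control libraries) and Fst (95.9 to 124.2 and 22.4 to 26.1) rose as well (edgeR quasi-likelihood adjusted p = 0.00348, 0.0081 and 0.00232), while Myo6 and Jag1 were present and not called. The groups did not overlap for Jag1. By edgeR, Jag1 was called higher with the replicate number as a block (adjusted p = 0.0401), without Nrf2 KO replicate 1 (0.0333) and without both libraries numbered 1 (0.00271). DESeq2 called it too (0.0233). For Myo6 the edgeR adjusted p was 0.0407 without Nrf2 KO replicate 1 and 0.0148 without both libraries numbered 1. Of 9 hair cell markers, 7 were under 1 CPM in every library, so that Myo6 and Myo7a made up nearly all of their sum. That sum was 62.5 to 76.5 CPM in the Nrf2 KO-labelled libraries and 33.1 to 45.2 CPM in the control libraries. For 9 supporting cell markers, 4 of them under 1 CPM in every library, the sums were 423 to 589 CPM and 341 to 407 CPM. The most abundant of these 9, Cdkn1b, had a log2 fold change of -0.32 and was not called. Without both libraries numbered 1 it was called lower (edgeR quasi-likelihood adjusted p = 0.0273). The summed level of 9 fibroblast markers was 6950 to 8949 CPM in the Nrf2 KO-labelled libraries and 5792 to 6878 CPM in the control libraries. Of the 7 fibroblast markers tested, Col1a2, Pdgfra, Thy1 and Col1a1 rose, with log2 fold changes of 3.27, 1.94, 1.88 and 1.33. With 1 library left out, Col1a1 was called only without Nrf2 KO replicate 1 (edgeR quasi-likelihood adjusted p = 0.00195, against 0.0941 to 0.153). The most abundant, Col3a1, had -0.66 without overlap of the groups and was not called. It was called lower by DESeq2 (adjusted p = 6.9e-06), and by edgeR without Nrf2 KO replicate 1 (0.0211) or without both libraries numbered 1 (0.00208). These marker shifts stand beside every member change given here, and their part in those changes was not tested.

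Of the 10 members, 2 rose and 1 fell in the Nrf2 KO-labelled libraries. The 2 that rose were Nfkb1 and Tnfaip3, and the 1 that fell was Vcam1. The other 7 did not pass the test, among them Icam1, the close counterpart of Vcam1 on cell surfaces. Over all 14618 genes tested, 4.83% were called higher and 3.45% lower, 8.28% in either direction. The median log2 fold change of the 10 members was 0.18, against 0.04 over all genes tested, and 6 of the 10 were positive. Ranges of the groups did not overlap for 4 members, Nfkb1, Tnfaip3, Vcam1 and Il6, against 34.2% of all genes tested. Il6 passed the filter on low counts through the Nrf2 KO-labelled libraries alone, so its separation was in part set by that filter, and the other 9 passed in both groups.

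**Figure D2:**
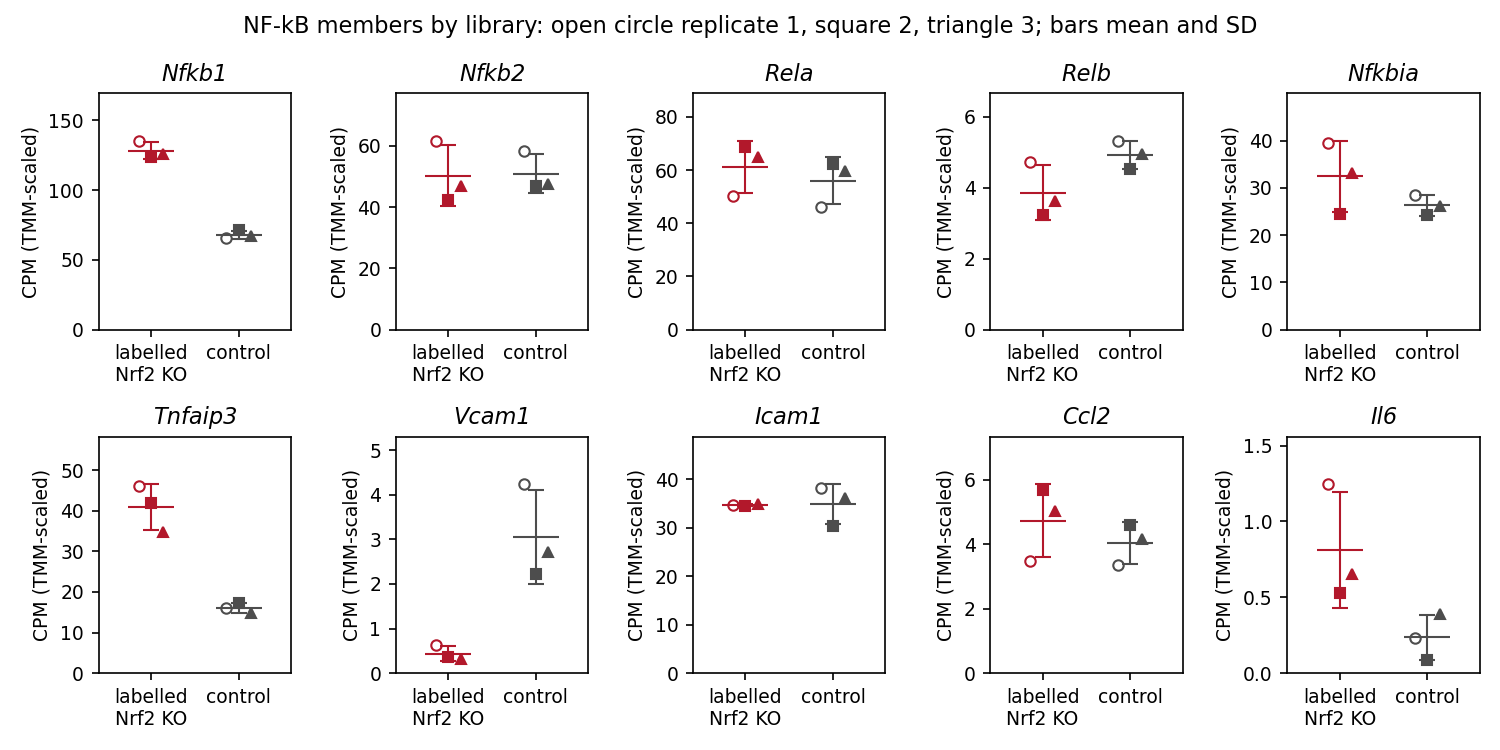
CPM of each member in every library (points), with the mean and SD of the 3 libraries of each group (bars), each panel on its own linear axis from 0. The 3 Nrf2 KO-labelled libraries lie above all control libraries for Nfkb1, Tnfaip3 and Il6 and below them for Vcam1, and the groups overlap for the other 6.

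Among the subunits, Nfkb1, which encodes the precursor of a DNA-binding subunit without an activation domain, was the one that changed. It had 135.5, 123.6 and 126.1 CPM in the Nrf2 KO-labelled libraries, against 65.4, 71.3 and 66.8 CPM in the control libraries. Every Nrf2 KO-labelled library was above every control library, and the gap between the groups was several times the spread within either. The means were 128.4 ± 6.26 CPM in the Nrf2 KO-labelled libraries and 67.8 ± 3.10 CPM in the control libraries (SD, n = 3 each), a log2 fold change of 0.92 (SE 0.13, edgeR quasi-likelihood adjusted p = 0.0117), or 1.89-fold. In bulk RNA, more cells of a type and more transcript per cell cannot be told apart. The call was lost on leaving out Nrf2 KO replicate 2 (adjusted p = 0.0542) or 3 (0.0557) or control replicate 1 (0.0761), 2 (0.0681) or 3 (0.110), with the log2 fold change between 0.89 and 0.96 in these fits. It was kept without Nrf2 KO replicate 1 (adjusted p = 0.00194).

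The other subunit genes did not pass the test. Rela, which encodes the main activating subunit, had 50.1, 68.6 and 64.9 CPM in the Nrf2 KO-labelled libraries, against 45.9, 62.4 and 59.6 CPM in the control libraries. In both groups replicate 1 was the lowest, and the groups overlapped. Its log2 fold change was 0.13, with a 95% confidence interval from -0.34 to 0.60. Nfkb2, whose product is the precursor of the second branch, had 61.6, 42.4 and 46.7 CPM in the Nrf2 KO-labelled libraries, against 58.4, 46.9 and 47.4 CPM in the control libraries, and here replicate 1 was the highest of both groups. Its log2 fold change was -0.02 (95% confidence interval -0.49 to 0.45). Relb, which encodes the partner of the processed Nfkb2 product, had 4.72, 3.24 and 3.62 CPM in the Nrf2 KO-labelled libraries, against 5.31, 4.52 and 4.95 CPM in the control libraries. Within each replicate number Relb was lower in the Nrf2 KO-labelled library, but the groups overlapped. The log2 fold change of Relb was -0.35 (95% confidence interval -0.91 to 0.20, edgeR quasi-likelihood adjusted p = 0.416), with an adjusted p of 0.0512 when both libraries numbered 1 were left out.

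Of the 2 feedback inhibitors, Tnfaip3 rose and Nfkbia did not pass the test. Tnfaip3 encodes a ubiquitin-editing enzyme that shuts off signalling from TNF and interleukin-1 receptors to IKK. It had 46.0, 41.8 and 34.9 CPM in the Nrf2 KO-labelled libraries, against 16.1, 17.2 and 14.9 CPM in the control libraries. The lowest Nrf2 KO-labelled library was above the highest control library, and the group means were 40.9 ± 5.62 CPM in the Nrf2 KO-labelled libraries and 16.1 ± 1.15 CPM in the control libraries (SD, n = 3 each). This is a log2 fold change of 1.35 (SE 0.17, edgeR quasi-likelihood adjusted p = 0.00741), or 2.55-fold. Tnfaip3 kept its call in 4 of 6 fits with a library left out and lost it without control replicate 1 (adjusted p = 0.0516) or 3 (0.0709).

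Nfkbia, which encodes the IkB protein that holds dimers in the cytoplasm, had 39.5, 24.5 and 33.2 CPM in the Nrf2 KO-labelled libraries, against 28.6, 24.2 and 26.1 CPM in the control libraries. Replicate 2 labelled Nrf2 KO lay within the control range and the other libraries of its group above it. The log2 fold change was 0.30 (95% confidence interval -0.20 to 0.81, edgeR quasi-likelihood adjusted p = 0.440). The promoters of both inhibitors hold kB matches close to their start, as printed above, and the part of these matches in either result was not tested.

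**Figure D3:**
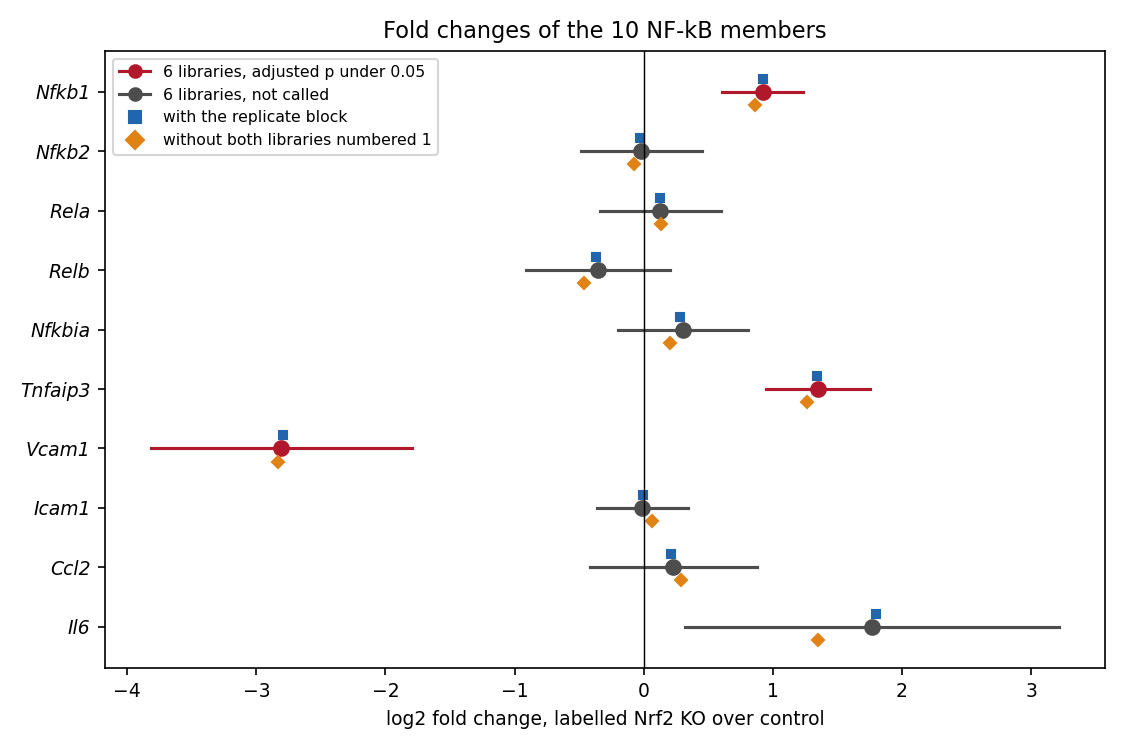
Log2 fold change of each member, Nrf2 KO-labelled libraries over control, with its 95% confidence interval (lines), and the same value with the replicate number as a block (squares) or without both libraries numbered 1 (diamonds). Intervals of Nfkb1 and Tnfaip3 lie above 0 and that of Vcam1 below it, and the Il6 interval lies above 0 although its adjusted p does not pass.

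Among the targets, Vcam1 and Icam1, which encode the surface molecules that leukocyte integrins bind, did not both pass the test: Vcam1 fell and Icam1 stayed inside its control range. Vcam1 had 0.638, 0.367 and 0.316 CPM in the Nrf2 KO-labelled libraries, from 20, 18 and 13 counts. In the control libraries it had 4.24, 2.23 and 2.71 CPM, from 166, 99 and 105 counts. The highest Nrf2 KO-labelled library was well below the lowest control library. The log2 fold change of Vcam1 was -2.81 (SE 0.42, edgeR quasi-likelihood adjusted p = 0.0141), which is 6.99-fold higher in the control libraries. With the replicate number as a block the adjusted p was 0.00583. The call was lost, with log2 fold changes from -2.99 to -2.50, on leaving out Nrf2 KO replicate 2 or 3 (adjusted p = 0.0667 each) or control replicate 1 (0.0562), 2 (0.0501) or 3 (0.0735).

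Icam1 had 34.7, 34.4 and 34.9 CPM in the Nrf2 KO-labelled libraries, against 38.2, 30.4 and 36.2 CPM in the control libraries. All Nrf2 KO-labelled libraries lay inside the control range, and the log2 fold change was -0.01 with a 95% confidence interval from -0.36 to 0.34. Vcam1 is also made by endothelial and mesenchymal cells in tissue. Of 8 endothelial markers, 6 were under 1 CPM in every library and Kdr and Tie1 were at 0 counts, with a summed level of 5.43 to 19.3 CPM in the Nrf2 KO-labelled libraries and 15.7 to 18.0 CPM in the control libraries. Of 10 leukocyte markers, 7 were under 1 CPM in every library and Adgre1 and Tyrobp were at 0, with sums of 4.13 to 17.8 CPM in the Nrf2 KO-labelled libraries and 7.94 to 10.9 CPM in the control libraries. Of the 3 leukocyte markers tested, 2 had positive log2 fold changes with overlapping groups and were not called, Fcer1g (1.38) and Cd68 (0.52). Of the 2 endothelial markers tested, Egfl7 had a log2 fold change of -0.21 with overlapping groups and was not called. The remaining tested marker of each list moved in the direction of Vcam1 without overlap. The leukocyte gene Laptm5 fell, with 0.511, 0.326 and 0.559 CPM in the Nrf2 KO-labelled libraries, against 3.70, 4.16 and 3.56 CPM in the control libraries (log2 fold change -3.03, edgeR quasi-likelihood adjusted p = 0.00393, called in every fit with 1 library left out). The endothelial receptor gene Tek had 0.383, 0.591 and 0.413 CPM in the Nrf2 KO-labelled libraries, against 0.791, 1.75 and 1.44 CPM in the control libraries (log2 fold change -1.51, edgeR quasi-likelihood adjusted p = 0.0730). Tek was called lower by edgeR with the replicate number as a block (adjusted p = 0.0290), without Nrf2 KO replicate 1 (0.0481) and without both libraries numbered 1 (0.00326). DESeq2 called it lower too (0.0102). The part of these cell types in the Vcam1 result was not tested.

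The secreted targets did not pass the test. Ccl2, a chemokine that draws monocytes, had 3.48, 5.68 and 5.03 CPM in the Nrf2 KO-labelled libraries, against 3.34, 4.61 and 4.18 CPM in the control libraries. Replicate 1 was the lowest in both groups, and the log2 fold change was 0.23 (95% confidence interval -0.42 to 0.87). Il6, which encodes the cytokine interleukin-6, had 1.24, 0.530 and 0.656 CPM in the Nrf2 KO-labelled libraries, from 39, 26 and 27 counts. In the control libraries it had 0.230, 0.0900 and 0.387 CPM, from 9, 4 and 15 counts. These groups did not overlap, but at so few counts the log2 fold change of 1.77 had an SE of 0.60 and an edgeR quasi-likelihood adjusted p of 0.133. DESeq2 gave Il6 an adjusted p of 0.0467, limma-voom 0.114 and the fit with the replicate block 0.0589.

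**Figure D4:**
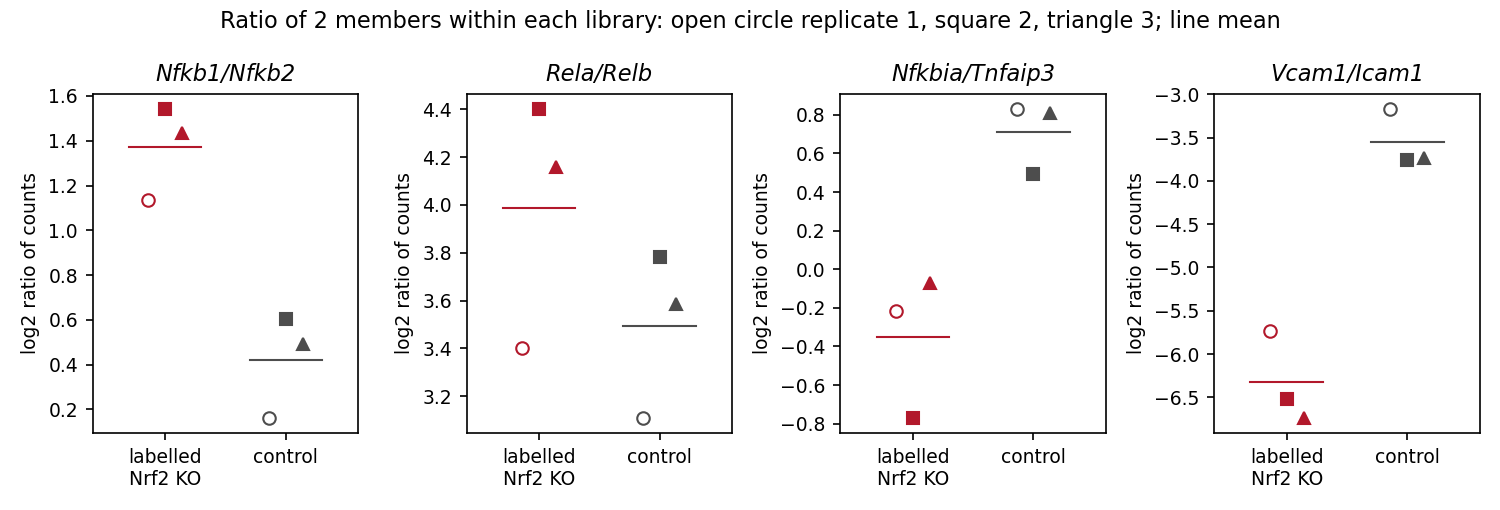
Log2 ratio of the counts of 2 members within each library (points) with the group mean (line), which does not depend on how libraries are scaled; each panel has its own axis, which does not start at 0. The 3 Nrf2 KO-labelled libraries lie apart from the control libraries for Nfkb1/Nfkb2, Nfkbia/Tnfaip3 and Vcam1/Icam1, and the groups overlap for Rela/Relb.

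Ratios of 2 members within a library give the same contrasts without any scaling between libraries. They are ratios of counts not divided by gene length, so only their difference between groups is read. The log2 ratio of Nfkb1 to Nfkb2 was 1.14, 1.54 and 1.43 in the Nrf2 KO-labelled libraries, against 0.16, 0.60 and 0.49 in the control libraries, a difference of 0.95. That of Nfkbia to Tnfaip3 was -0.22, -0.77 and -0.07 in the Nrf2 KO-labelled libraries, against 0.83, 0.49 and 0.81 in the control libraries, a difference of -1.06. That of Vcam1 to Icam1 was -5.73, -6.51 and -6.74 in the Nrf2 KO-labelled libraries, against -3.17, -3.76 and -3.74 in the control libraries, a difference of -2.77. In each of these 3 pairs the groups did not overlap and the two-sided exact permutation p was 0.1, the smallest that 3 against 3 can give (0.133 adjusted over the 4 pairs). For Rela to Relb the difference was 0.49 with overlapping groups (exact permutation p = 0.3, which does not use the replicate numbers). Within each number Rela to Relb was higher in the Nrf2 KO-labelled library, by 0.29, 0.62 and 0.57. The pair Ccl2 to Il6 was not used because Il6 had under 10 counts in control replicates 1 and 2.

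For levels set between genes, the authors' deposited table gives FPKM, which is per length, as 1 value per group without a spread. In that table Nfkb1 (26.8 FPKM), Rela (20.3) and Nfkbia (16.9) were the highest members in the group labelled Nrf2 KO, and Rela (18.8), Nfkb1 (14.2) and Nfkbia (13.8) in the control group. The authors' deposited table puts Nfkb2 at 12.1 FPKM in the group labelled Nrf2 KO and 12.4 in the control, and Icam1 at 10.8 and 11.0. Tnfaip3 followed with 7.53 FPKM in the group labelled Nrf2 KO and 2.90 in the control in the authors' deposited table, and Ccl2 with 4.90 and 4.24. Relb (1.42 FPKM in the group labelled Nrf2 KO and 1.81 in the control), Il6 (0.626 and 0.177) and Vcam1 (0.116 and 0.829) were the lowest in the authors' deposited table. With 1 value per group, whether neighbours in this order differ cannot be tested.

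The rest of the pathway was read from 99 further genes in 7 role lists, of which 98 were found in the table and 71 had enough counts to test. Of these 71, 7 rose and 0 fell by edgeR's quasi-likelihood test, against 4.83% and 3.45% of all genes tested. Of the 7, Traf1 and Tlr3 passed the filter on low counts only through the group in which they were high, and among the 65 genes that passed in both groups 5 rose and 0 fell. At an unadjusted p under 0.05, 19 were higher and 4 lower, against 13.4% and 11.6% of all genes (25.0% together). DESeq2 called 17 higher and 4 lower, against 10.9% and 9.02% of all genes, and limma-voom 7 and 0, against 5.14% and 4.12%. The log2 fold change was positive for 57 of 71 (80.3%), against 53.6% of all genes tested, and the median was 0.34. Counts over all 71 include the genes that did not pass the filter in both groups. The lists were chosen with earlier results of these data known, so their shares are a description and carry no test. Without Nrf2 KO replicate 1, 50 of 71 were positive (70.4%, against 48.5% of all genes) and 21 rose and 3 fell, against 15.6% and 14.5% of all genes. With the replicate block 17 rose and 3 fell, against 10.4% and 7.92%. Without both libraries numbered 1, 31 of 70 rose and 5 fell, against 24.0% and 22.1%. Ranges of the groups did not overlap for 26 of the 71, a share close to the 34.2% over all genes.

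**Figure D5:**
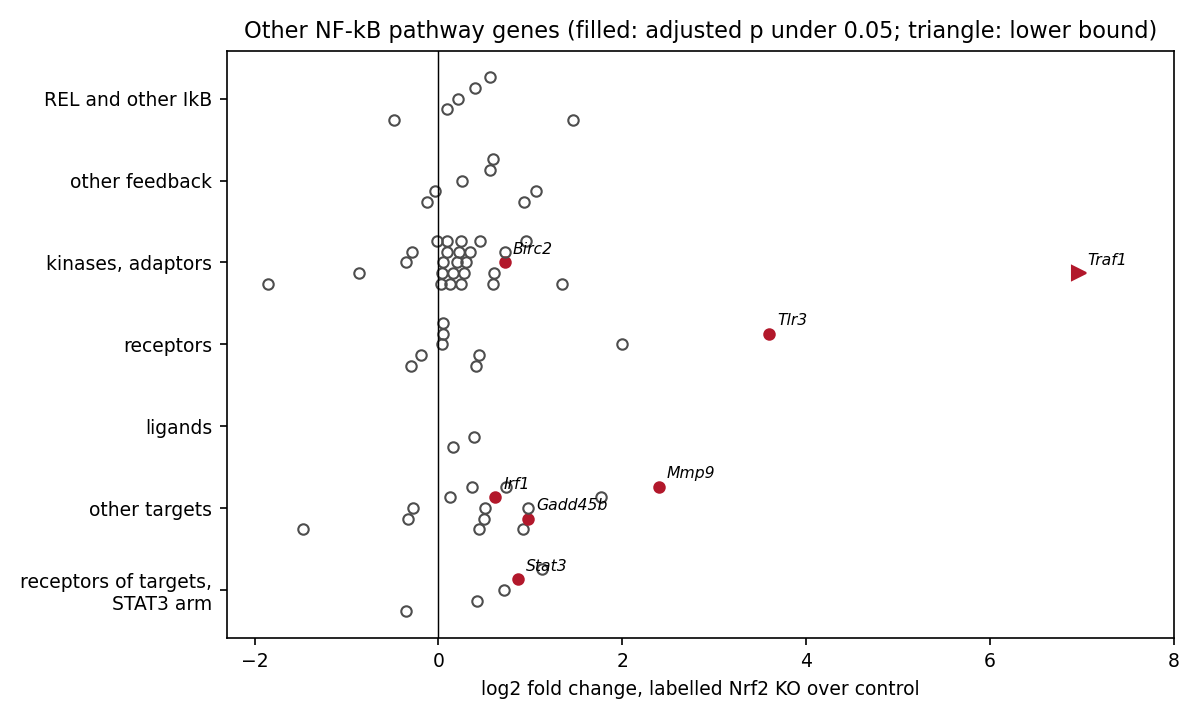
Log2 fold change, Nrf2 KO-labelled libraries over control, of the 71 other pathway genes tested, by role (points; vertical scatter within a row has no meaning), with called genes filled and named. The 7 called genes all lie right of 0, and Traf1, at 0 counts in the control libraries, is drawn at its lower bound.

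Kinases and adaptors between receptor and IKK held 2 called genes of 27. Traf1, an adaptor of TNF receptors and itself a known NF-kB target, had 91, 142 and 141 counts (2.91, 2.89 and 3.43 CPM) in the Nrf2 KO-labelled libraries and 0 counts in all 3 control libraries. Against a floor of 3 counts over the control group, which covers counting error alone, it was at least 125-fold higher in the Nrf2 KO-labelled libraries. Its edgeR quasi-likelihood adjusted p was 0.00348, and it was still called whichever of the 6 libraries was left out. It passed the filter through the Nrf2 KO-labelled libraries alone. Birc2, a ubiquitin ligase that acts at the TNF receptor and restrains the second branch, had 53.1, 58.0 and 60.0 CPM in the Nrf2 KO-labelled libraries, against 30.8, 38.1 and 34.8 CPM in the control libraries (log2 fold change 0.72, SE 0.15, edgeR quasi-likelihood adjusted p = 0.0343).

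Of 9 receptors tested, Tlr3, which senses double-stranded RNA, rose. It had 1.02, 1.20 and 1.17 CPM in the Nrf2 KO-labelled libraries, from 32, 59 and 48 counts, against 0.153, 0.0450 and 0.0773 CPM in the control libraries, from 6, 2 and 3 counts. The groups were far apart, at low counts in both, and Tlr3 too passed the filter through the Nrf2 KO-labelled libraries alone (log2 fold change 3.60, SE 0.45, edgeR quasi-likelihood adjusted p = 0.00799). Its call was lost without control replicate 3 (adjusted p = 0.0737) and kept in the other 5 fits with 1 library left out. Of 9 ligands 2 could be tested and 0 were called by edgeR's quasi-likelihood test (0 at an unadjusted p under 0.05, 0 by DESeq2 and 0 by limma-voom). Tnfsf12, a ligand of the TNF family, was at 13.9, 14.9 and 17.1 CPM in the Nrf2 KO-labelled libraries and 15.2, 12.2 and 13.7 CPM in the control libraries, and Tnfsf13b was under 1.1 CPM in every library. Il1b, Tnfsf11 and Cd40lg were at 0 counts in all 6 libraries, which at these depths allows up to 0.0611 to 0.0958 CPM for counting error alone.

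Of 15 other targets tested, 3 rose. Mmp9, a gelatinase, had 1.18, 2.67 and 3.43 CPM in the Nrf2 KO-labelled libraries, against 0.536, 0.382 and 0.464 CPM in the control libraries (log2 fold change 2.40, SE 0.46). Gadd45b, a stress protein known as an NF-kB target that limits JNK signalling, had 42.5, 30.4 and 36.9 CPM in the Nrf2 KO-labelled libraries, against 21.7, 15.7 and 18.6 CPM in the control libraries (log2 fold change 0.97, SE 0.20). Irf1, a transcription factor of interferon and NF-kB responses, had 47.1, 43.3 and 44.4 CPM in the Nrf2 KO-labelled libraries, against 29.3, 29.1 and 29.7 CPM in the control libraries (log2 fold change 0.61, SE 0.13). The groups did not overlap for these 3 genes, with adjusted p of 0.0289, 0.0359 and 0.0369 by edgeR's quasi-likelihood test. Gadd45b lost its call with upper-quartile scaling (adjusted p = 0.0549) and with library size alone (0.0554), and Irf1 did too (0.0562 and 0.0606). With no filter on low counts, Irf1 (adjusted p = 0.0725) and Birc2 (0.0613) were not called. Birc2, Mmp9, Gadd45b and Irf1 each kept the call in 1 of the 6 fits with a library left out, the one without Nrf2 KO replicate 1.

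Of the 5 tested receptors and signalling partners of the target gene products, Stat3, the transcription factor through which interleukin-6 acts, rose. It had 207.5, 269.3 and 234.5 CPM in the Nrf2 KO-labelled libraries, against 114.6, 155.7 and 121.5 CPM in the control libraries (log2 fold change 0.86, SE 0.19, edgeR quasi-likelihood adjusted p = 0.0460, with a call only without Nrf2 KO replicate 1 among the 6 fits with a library left out, and none with no filter on low counts, 0.0737). Itga4, the integrin chain that binds VCAM1, was at 0 counts in all 6 libraries.

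Neither remaining list held a call. Of 6 tested genes for the REL subunit and other IkB proteins, edgeR called 0 (2 at an unadjusted p under 0.05, DESeq2 1 higher and 1 lower, limma-voom 0). Nfkbiz, a nuclear IkB protein, had 35.0, 11.9 and 11.9 CPM in the Nrf2 KO-labelled libraries, against 8.98, 5.49 and 6.73 CPM in the control libraries, so that 1 library carried most of its difference in means (edgeR quasi-likelihood adjusted p = 0.130, falling under the threshold with the block on replicate number at 0.0325, without Nrf2 KO replicate 1 at 0.0463 and without both libraries numbered 1 at 0.00146). Nfkbib, another cytoplasmic IkB, had 10.7, 11.4 and 12.8 CPM in the Nrf2 KO-labelled libraries, against 16.4, 14.9 and 17.4 CPM in the control libraries (adjusted p = 0.131, and 0.0297 without both libraries numbered 1). Of 7 tested feedback regulators besides Tnfaip3, edgeR called 0 (2 at an unadjusted p under 0.05, DESeq2 2 higher, limma-voom 0). Tax1bp1, which brings the Tnfaip3 product to its substrates, had 305.6, 509.1 and 517.6 CPM in the Nrf2 KO-labelled libraries, against 166.6, 236.0 and 237.2 CPM in the control libraries. Its log2 fold change was 1.06 (SE 0.28), with an edgeR quasi-likelihood adjusted p of 0.0709, against 0.0131 with the block on replicate number, 0.00447 when Nrf2 KO replicate 1 was left out and 5.92e-05 without both libraries numbered 1. Otud7b, a deubiquitinase, had a log2 fold change of 0.26 (SE 0.13, adjusted p = 0.295, and 0.0250 without both libraries numbered 1).

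The genes whose profile over the 6 libraries was most like that of a called member were taken by the root mean square difference of log2 CPM after subtracting each gene's mean, among 11819 named genes. For Tnfaip3 these were Epha2 (0.0888) and Mgat3 (0.0944), for Nfkb1 they were Pomgnt2 (0.0356) and Rab30 (0.0373), and for Vcam1 they were Cacnb1 (0.159) and Fxyd1 (0.211). These values describe likeness over 6 libraries in 2 groups and carry no test.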

How the data were processed

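Poly(A)-selected RNA-seq libraries of HEI-OC1 cells were compared, 3 labelled Nrf2 KO and 3 control, grouped by their labels. The submitters' processing notes name HISAT2, fastp, FastQC, DESeq2 1.34.0 and the build hg18. No source used here gives the counting tool, annotation or strand setting, so overlapping and antisense genes cannot be separated. The authors deposited raw counts per gene symbol, and a second table with 1 FPKM value per group that the authors did not describe. Symbols follow rat nomenclature (650 of 30438 begin with RGD), so reads of mouse cells may be lost unevenly between genes, which touches levels set between genes and values at 0.

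Counts went into edgeR 4.0.16 (R 4.3.3): filterByExpr by group (minimum count 10, minimum total 15), TMM scaling, and a robust quasi-likelihood fit on group alone. Its two-sided p-values received Benjamini-Hochberg adjustment over 14618 genes, and 0.05 was the threshold. Alternatives were other scalings and filters, DESeq2 1.42.0, limma-voom (limma 3.58.1), the replicate block, and leaving out libraries. Log2 CPM for profiles had a prior count of 2, and ratios had 0.5 added to each count.

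The labels number the replicates without saying what a number marks, or that they were separate cultures, so a p-value here reflects only how far these samples spread, possibly for technical reasons. Deviations from the group mean correlated by 0.754, 0.696 and 0.310 between libraries of the same number, above the limit of 0.1. For Nrf2 KO replicate 3 the higher value was with control replicate 2, at 0.539, so the counts set replicate 1 apart and do not single out the other two pairs. By that limit alone the numbers were taken to pair the libraries, from the counts and not from the labels. The main calls came from the fit on group alone, which did not use the numbers, and the replicate block was an alternative. The closest 2 libraries of a group differed by a chi-square of 14.5 per degree of freedom, more than sampling noise. The members and lists were chosen with earlier results of these data known. All members are named, and in each role list up to 4 called genes, or, in a list without a call, the 2 of highest CPM. Il1b, Tnfsf11, Cd40lg, Itga4 and the markers of other cell types were named after their values were seen. Il6ra was matched under an older name. Ccr2 was not analysed here.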

Additional observations from a re-analysis of the deposited data

How the results depend on the processing

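Under 15 alternatives, no member that was called changed direction. Of 149 member values under an alternative, 130 kept direction and side of the threshold, 12 lost a call, 1 gained one (Il6 by DESeq2) and 6 changed sign. Those 6 were near 0 throughout: Nfkb2 had a log2 fold change of 0.0886 without Nrf2 KO replicate 2, 0.0295 without Nrf2 KO replicate 3 and 0.0884 without control replicate 1, in a range from -0.196 to 0.0886 with 1 library left out. Icam1 had 0.0561 without control replicate 1, 0.0138 without control replicate 3 and 0.0634 without both libraries numbered 1, in a range from -0.0999 to 0.0561 with 1 library left out. The cause was not tested. Il6 had no value with a filter of 1 CPM in 3 libraries.

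Over all genes 1211 were called, against 2916 by DESeq2, 2678 with the replicate block and 6793 without both libraries numbered 1, and between 196 and 4485 with 1 library left out. Of the members 2 rose and 1 fell in every fit of 6 libraries with the exception of DESeq2, where 3 rose, and between 0 and 2 rose and 0 and 1 fell with 1 library left out. Of the other pathway genes 7 rose and 0 fell, against 4 higher with no filter on low counts, 17 and 4 by DESeq2, 17 and 3 with the replicate block, and 31 and 5 without both libraries numbered 1. With 1 library left out, between 1 and 21 rose and 0 and 3 fell. The replicate block changed no call among the 10 members. The difference of each ratio between groups moved by less than the SD of the Nrf2 KO-labelled libraries with a pseudocount of 2 and with libraries left out. Against the smaller SD of the control libraries, Nfkbia to Tnfaip3 moved by more in 1 fit, to -0.855 without Nrf2 KO replicate 2. Depth limits Il6, Vcam1, Tlr3 and Traf1, which rest on at most 166 counts in a library.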

Other observations

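Among genes with a promoter window in the RefSeq table, 557 tested genes had a kB match and 8400 had none. Of those with a match 7.18% were called higher and 3.95% lower, with a median log2 fold change of 0.13. Of those without a match 5.02% were called higher and 3.20% lower, with a median of 0.06. These shares are a description of this search and carry no test.

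The libraries numbered 1 were the highest of both groups for 4 of the 10 members (Nfkb2, Relb, Nfkbia and Vcam1) and the lowest of both for 2 (Rela and Ccl2). The same held for 29 and 26 of the 71 other pathway genes, which is 40.8% and 36.6%, against 35.0% and 36.4% of all genes tested. The chemokine gene Cxcl1, singled out after its values were seen, had 387.2, 107.4 and 122.7 CPM in the Nrf2 KO-labelled libraries, against 81.2, 40.1 and 59.5 CPM in the control libraries. By edgeR quasi-likelihood its adjusted p was 0.117; the block on replicate number gave 0.0216, and the fit that left out Nrf2 KO replicate 1 gave 0.0445.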
